A study of Mus musculus with 8 samples.

Results

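The genes described are 38 members of the contractile and calcium handling machinery of cardiomyocytes, the muscle cells of the heart. They were chosen by name, as rows of a table of 55487 gene identifiers. The list uses no measured value as a criterion, but it was drawn up with earlier results of these data known. They hold 6 genes of the thin filament, 7 of the thick filament, 11 of titin, the Z disc and the M band, 5 of calcium handling, 4 natriuretic peptide and strain response genes, and 5 regulators and chaperones. RNA was measured in 8 libraries of E14-Tg2a, a mouse embryonic stem cell line, after differentiation in culture towards precardiac mesoderm and harvest on day 6. The first group, 4 libraries, was the parental line with genotype WT, and the second group, 4 libraries, was line 4D with genotype Tbx1-/-. Both lines went through the same serum-free differentiation, no further agent is named for either, and the design text calls the 4 libraries of each line biological replicates. The mutant group is 1 line, so that a difference between the groups and a difference between 4D and its parental line that is unrelated to Tbx1 cannot be told apart.

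A sarcomere is the repeating contractile unit of striated muscle. Myosin heads of the thick filament pull on actin of the thin filament, troponin and tropomyosin let them do so only when calcium rises, and titin spans from the Z disc, where thin filaments are anchored, to the M band, where thick filaments are joined. Calcium enters through the L-type channel, is released from internal stores by the ryanodine receptor, and is removed by the pump SERCA2 and by sodium-calcium exchange. In the embryo these genes come on as precursors become beating cardiomyocytes, and many of them serve as markers of that step.

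The measurement was QuantSeq, which reads polyadenylated transcripts at their 3′ end. Counts therefore do not grow with transcript length and levels of different genes can be set side by side as CPM, counts scaled to a common library total by the trimmed mean of M values (TMM). Depth ran from 3803561 to 6293907 counts per library. Tbx1, the mutated gene, which encodes a T-box transcription factor of the pharynx and second heart field, had 39, 65, 38 and 22 counts in parental libraries 1 to 4 and 3, 0, 1 and 0 in mutant libraries 1 to 4, a log2 fold change of -5.08 ± 0.88 (SE; edgeR adjusted p = 0.00432). Which part of the gene is changed in line 4D is not given in the sources used here. Mutant library 4 stood apart: at equal depth 14850 genes had a count there, against 17644 to 18614 in the other 7 libraries. Of the genes that averaged 5 to 10 CPM in mutant libraries 1 to 3, 8.11% had 0 counts in library 4, where the same share for each of the other 7 libraries was 0.055% to 0.282%. Results that rest on it are given with and without it.

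The promoters of the members were searched for short sequence motifs. RefSeq's promoter table (GRCm38.p6) held 33 of the members with 47 start sites, each as a window of 250 bases before to 50 after the start; Cryab, Myocd, Tcap, Nexn and Atp2a2 had no entry. The CArG box, the site bound by serum response factor, whose cofactor myocardin is the product of the member Myocd, was found in 9 of the 47 windows (19.1%) and in 1.63% of all 32851 windows in the table. The 9 windows hold 8 separate boxes in 7 genes, because both windows of Ldb3 cover the same box. The boxes are printed with their flanks, 5′ to 3′ along the gene's strand with the box in capitals, since this is the motif with the widest gap between members and all promoters.
Actc1: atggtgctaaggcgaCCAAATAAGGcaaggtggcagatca
Fhl2, downstream start: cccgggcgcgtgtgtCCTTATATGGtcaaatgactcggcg
Fhl2, upstream start: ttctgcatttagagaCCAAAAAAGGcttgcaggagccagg
Ldb3: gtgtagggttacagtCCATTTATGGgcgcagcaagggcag
Myl3: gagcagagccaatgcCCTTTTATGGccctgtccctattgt
Myl7: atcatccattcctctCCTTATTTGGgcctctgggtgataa
Myom1: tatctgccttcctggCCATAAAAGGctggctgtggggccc
Nebl: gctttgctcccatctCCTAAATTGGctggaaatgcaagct
The printed stretches lie at chr2:114052898-114052937 on the minus strand (Actc1), chr1:43163968-43164007 on the minus strand (Fhl2 downstream start), chr1:43196833-43196872 on the minus strand (Fhl2 upstream start) and chr14:34588692-34588731 on the minus strand (Ldb3). The others lie at chr9:110763578-110763617 on the plus strand (Myl3), chr11:5898819-5898858 on the minus strand (Myl7), chr17:71019443-71019482 on the plus strand (Myom1) and chr2:17462994-17463033 on the minus strand (Nebl). Counted from the start site, the boxes span bases -47 to -38 (Actc1), -31 to -22 (Fhl2 downstream start), -96 to -87 (Fhl2 upstream start), -35 to -26 (Ldb3), -85 to -76 (Myl3), -61 to -52 (Myl7), -99 to -90 (Myom1) and -162 to -153 (Nebl). All 8 boxes lie before the start site, and the 2 boxes of Fhl2 belong to different start sites. In the comparison of lines below, the log2 fold changes of these 7 genes ran from -1.65 (Myl7) to -0.25 (Myom1), and none passed the test.

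Other motifs were searched on both strands of the same windows. The GATA motif AGATAA was present in 23.4% of member windows and 11.2% of all windows, the T-box motif GGTGTGA in 8.51% and 3.98%, the MEF2 motif in 6.38% and 3.19%, the TATA box TATAAA in 17.0% and 13.6%, the NKX2 motif CACTTNA in 8.51% and 11.5%, and the E-box CANNTG in 87.2% and 72.3%. The letters of the AT-rich motifs (TATA box, MEF2 motif, CArG box) can overlap one another. A match describes these letters only, and some members have several start sites. Both matches in Smyd1 lie on the opposite strand, so their capitals are the reverse complement of the motif letters. The upstream 250 bases are printed for the member of highest level in 3 of the role classes, with a motif found in each in capitals: the CArG box of Myl7, the MEF2 motif of Ttn, and the NKX2 motif and TATA box of Smyd1.
Myl7: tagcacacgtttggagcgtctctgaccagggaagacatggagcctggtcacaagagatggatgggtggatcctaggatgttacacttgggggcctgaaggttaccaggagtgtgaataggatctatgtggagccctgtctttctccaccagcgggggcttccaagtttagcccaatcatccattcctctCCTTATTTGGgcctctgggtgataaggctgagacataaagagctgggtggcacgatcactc
Ttn: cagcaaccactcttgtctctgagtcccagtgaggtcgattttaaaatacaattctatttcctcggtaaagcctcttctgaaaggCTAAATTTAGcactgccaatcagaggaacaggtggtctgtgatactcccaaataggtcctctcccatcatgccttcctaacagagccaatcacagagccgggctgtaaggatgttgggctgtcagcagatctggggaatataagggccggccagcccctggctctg
Smyd1: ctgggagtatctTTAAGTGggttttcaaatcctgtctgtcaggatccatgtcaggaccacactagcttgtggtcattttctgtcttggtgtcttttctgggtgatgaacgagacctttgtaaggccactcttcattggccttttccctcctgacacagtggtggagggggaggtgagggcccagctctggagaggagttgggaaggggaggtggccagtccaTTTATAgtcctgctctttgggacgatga
They lie at chr11:5898783-5899032 (Myl7), chr2:76982548-76982797 (Ttn) and chr6:71262282-71262531 (Smyd1), all on the minus strand. The same stretch of Tpm1 held none of these motifs other than an E-box, and that of Slc8a1 held a GATA motif at positions -68 to -63.

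Of the 38 members, 35 had enough counts to be tested, and 29 reached 1.81 CPM, the level the filter asks for, in at least 3 libraries of each line. The 3 left untested were Pln, Nppa and Nppb. Summed over all members, the level was 6421, 3921, 2227 and 1808 CPM in parental libraries 1 to 4 and 2097, 2011, 2266 and 1039 CPM in mutant libraries 1 to 4. Parental libraries 1 and 2 were the highest, mutant libraries 1 to 3 lay beside parental libraries 3 and 4, and mutant library 4 was the lowest. As a share of all counts, the members took 0.639% (95% exact Clopper-Pearson interval 0.632 to 0.645) in parental library 1 and 0.0994% (0.0962 to 0.103) in mutant library 4. Such intervals cover counting error only.

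The lines were first compared gene by gene, which asks whether loss of Tbx1 goes with another level of the cardiac muscle program. No member passed an adjusted p of 0.05 in edgeR's quasi-likelihood test, where 1.42% of all 13280 tested genes did. At an unadjusted p under 0.05, 16 of 35 members were lower in the mutant line and 0 were higher, and 5.92% of all tested genes were lower at that level. DESeq2 called 2 members, Nebl and Unc45b, and 3.05% of all tested genes, and limma-voom called 0 members and 1.9% of all tested genes. The log2 fold change was below 0 for 33 of 35 members (94.3%; all tested genes 49.8%), with a median of -0.93 over the members and 0.000998 over all tested genes. In 3 members, Tpm1, Nebl and Unc45b, all mutant libraries lay below all parental libraries, which was so for 4.04% of all tested genes.

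The size of this difference moved with single libraries. Without mutant library 4 the median was -0.79, 30 of 35 members were below 0, and Myocd alone was called (1.29% of 13823 genes tested). Without parental library 1 the median was -0.42, 26 of 35 members were below 0, and 0 members were called (1.06% of all tested genes). The count lower at an unadjusted p under 0.05 was 9 there and 9 with DESeq2 on all 8 libraries, against 16 in the main edgeR test. In the main edgeR test 5.92% of all tested genes were lower at that level. The share over all genes was not counted for the other fits, so their counts cannot be set against it. Without parental library 4 the median was -1.14 and 8 members were called (1.18% of all tested genes). Those 8 were Des, Myocd, Nebl, Nexn, Smyd1, Tnni1, Tnnt2 and Tpm1. In bulk RNA, fewer cardiomyocytes and less of this RNA per cell cannot be told apart.

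**Figure D1:**
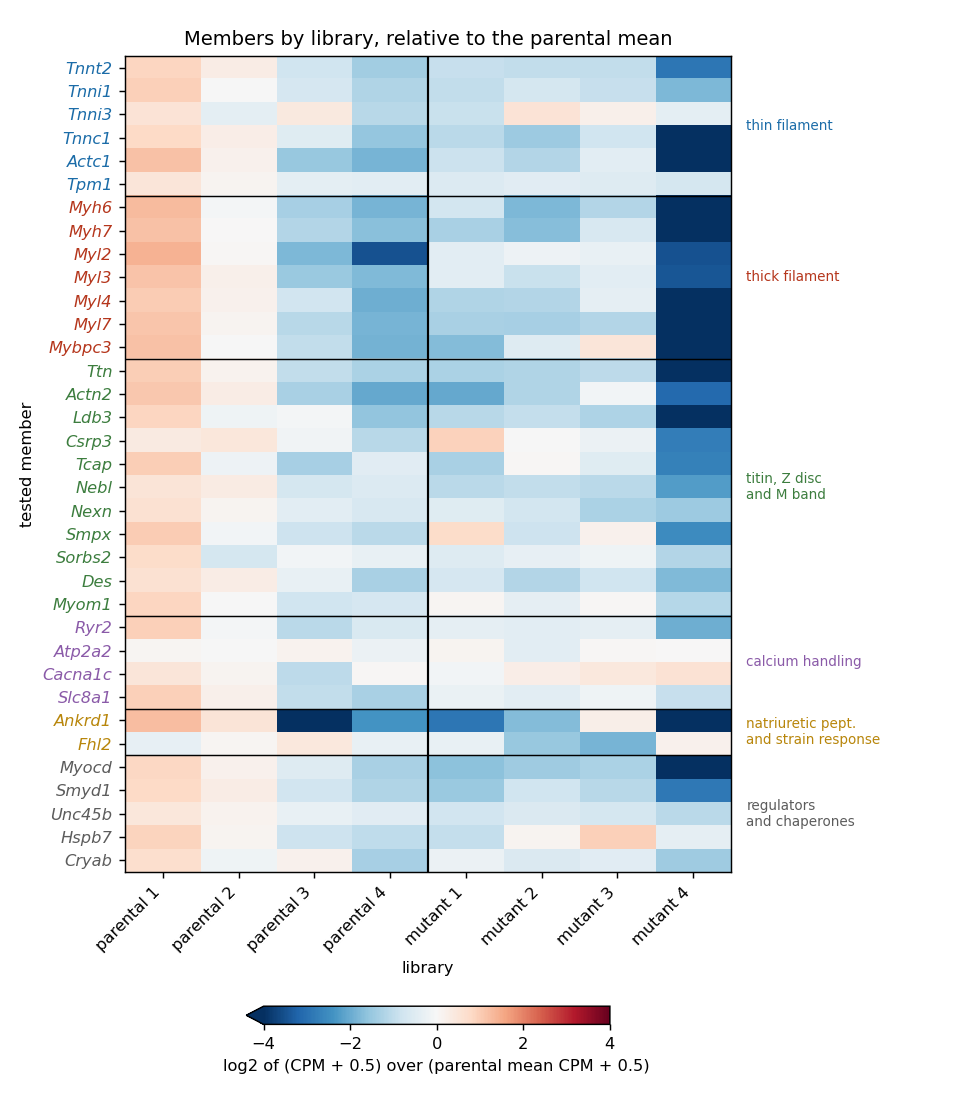
Level of the 35 tested members (rows, grouped by role) in the 8 libraries (columns), as the log2 ratio of CPM + 0.5 to the mean parental CPM + 0.5; the colour scale ends at -4, and lower ratios have its darkest blue. Parental library 1 is the reddest column and mutant library 4 the bluest, while mutant libraries 1 to 3 resemble parental libraries 3 and 4.

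The order of libraries was shared across the members. Parental library 1 was the highest of all 8 for 29 of 35 tested members (82.9%), against 12.3% of all tested genes. The 4 parental libraries fell in the order 1, 2, 3, 4 for 22 members (62.9%; all genes 6.01%); replicates carry no order, so this counts only how alike the members were. Mutant library 4 was the lowest of all 8 for 27 members (77.1%; all genes 26%). Across the parental libraries the median SD of log2 CPM was 0.93 for the members and 0.30 for all tested genes. Across the mutant libraries it was 0.99 and 0.37, and over mutant libraries 1 to 3 alone 0.28 and 0.29. Cultures of the parental line thus spread more in these genes than in genes at large, as did the mutant cultures when library 4 was included, and mutant libraries 1 to 3 did not. For 22 of 35 members, mutant libraries 1 to 3 all lay inside the range of the parental libraries. The same count was not made over all tested genes, and the wide parental spread of the members makes it easier to meet.

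Thin filament genes had the highest summed level of the role classes in every library, 876 to 2496 CPM in the parental and 611 to 988 CPM in the mutant libraries. Tpm1, alpha-tropomyosin, which covers the myosin sites on actin and is also made outside muscle, had 1217, 924, 654 and 649.6 CPM in the parental and 591, 623, 601 and 530.0 CPM in the mutant libraries. Every mutant library was below every parental one, by a narrow margin, with a log2 fold change of -0.55 ± 0.15 (adjusted p = 0.0892). Tnnt2, cardiac troponin T, which ties the troponin complex to tropomyosin (ENSMUSG00000026414.13; GRCm38 chr1:135836354-135852260, plus strand), had 411, 276, 129 and 84.9 CPM in the parental and 119.9, 115, 113 and 29.97 CPM in the mutant libraries. Mutant libraries 1 to 3 lay between parental libraries 3 and 4, and library 4 was the only one under the parental range. Its log2 fold change was -1.25 ± 0.39 (adjusted p = 0.147), and -0.96 ± 0.33 without mutant library 4.

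Actc1, cardiac alpha-actin, the core of the thin filament, had 474, 237, 73.7 and 57.9 CPM in the parental and 115, 92.4, 156 and 5.77 CPM in the mutant libraries. The groups overlapped, and the log2 fold change of -1.18 ± 0.60 did not pass the test (adjusted p = 0.463). Actc1 has the close relatives Acta1 and Acta2, and whether any reads were shared among them was not tested. Tnnc1, the calcium-binding troponin C of heart and slow muscle, had 133, 90.96, 54.6 and 25.5 CPM in the parental and 35.4, 27.2, 43.4 and 3.02 CPM in the mutant libraries. All mutant libraries but library 4 again lay inside the parental range, with a log2 fold change of -1.46 ± 0.48 (adjusted p = 0.173).

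Tnni1 and Tnni3 encode the inhibitory subunit of troponin; the heart uses the slow skeletal form Tnni1 before birth and changes to the cardiac form Tnni3 later. Tnni1 had 250.2, 126, 80.6 and 55.2 CPM in the parental and 64.8, 77.6, 66.8 and 36.6 CPM in the mutant libraries. Its log2 fold change was -1.05 ± 0.33 (adjusted p = 0.141). Tnni3 had 10.4, 5.203, 9.26 and 2.95 CPM in the parental and 3.53, 10.5, 7.99 and 5.22 CPM in the mutant libraries. Unlike its partner it did not follow the order of the other members, and its log2 fold change was -0.04 ± 0.50 (adjusted p = 0.989). At an unadjusted p under 0.05, 4 of the 6 thin filament genes were lower (5.92% of all tested genes). The median log2 fold change of the class was -1.11.

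**Figure D2:**
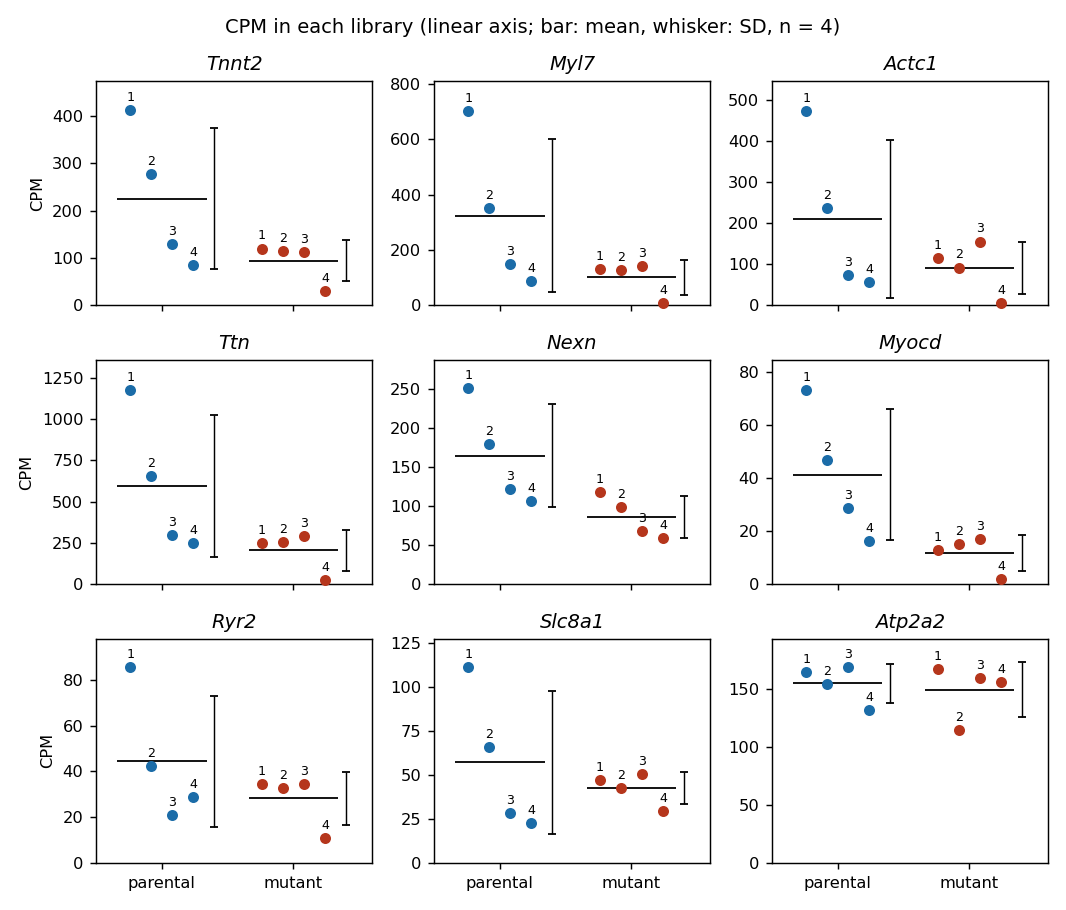
CPM of 9 members in each library on a linear axis from 0, with the library number beside each point, the mean as a bar and the SD (n = 4) as a whisker. In Tnnt2, Myl7 and Ttn, parental libraries 1 and 2 stand above a band shared by parental libraries 3 and 4 and mutant libraries 1 to 3, whereas the Atp2a2 levels of the lines overlap without such a gradient.

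Thick filament genes spread widely, with a median SD of log2 CPM of 1.32 over the parental and 1.92 over the mutant libraries (0.48 over mutant libraries 1 to 3). Myl7, the regulatory light chain of atrial myosin and an early marker of the heart tube (ENSMUSG00000020469.8; GRCm38 chr11:5896637-5898782, minus strand), had 703, 352, 151 and 88.5 CPM in the parental and 132, 127, 142 and 8.25 CPM in the mutant libraries. Mutant libraries 1 to 3 were within 1.11-fold of one another and inside the parental range, and library 4 was far below both. The log2 fold change was -1.65 ± 0.56 (adjusted p = 0.199), and -1.28 ± 0.42 without library 4 (adjusted p = 0.181). Myl4, the essential light chain of atrial and fetal muscle, had 205, 116, 60.00 and 25.7 CPM in the parental and 43.8, 44.5, 78.6 and 3.57 CPM in the mutant libraries. Its groups overlapped in the same way, with a log2 fold change of -1.24 ± 0.54 (adjusted p = 0.368).

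Myh6 and Myh7 encode the alpha and beta myosin heavy chains, the motors of the cardiac sarcomere, and lie next to each other on chromosome 14. Myh7 had 169, 75.9, 33.5 and 23.6 CPM in the parental and 30.2, 22.9, 47.8 and 3.02 CPM in the mutant libraries. Myh6 had 123, 48.4, 20.4 and 13.7 CPM in the parental and 30.7, 14.4, 22.7 and 0.825 CPM in the mutant libraries, the last from 3 counts. Both were highest in parental library 1 and lowest in mutant library 4. Their log2 fold changes were -1.51 ± 0.54 and -1.55 ± 0.61 (adjusted p = 0.228 and 0.296). Because the genes are near-identical in part, reads can be split between them uncertainly.

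Of the other thick filament genes, Myl3, the ventricular essential light chain, ran from 26.1 to 200.2 CPM in the parental and from 7.97 to 67.4 CPM in the mutant libraries. Mybpc3, cardiac myosin binding protein C, ran from 7.37 to 64.4 and from 0 to 39.8 CPM. Myl2, the ventricular regulatory light chain, had 14.00, 5.203, 1.12 and 0 CPM in the parental and 3.696, 4.36, 3.996 and 0 CPM in the mutant libraries. For counting error alone, a count of 0 allows up to 0.632 CPM in parental library 4 and 0.825 CPM in mutant library 4. The second limit does not hold as such, since genes of 5 to 10 CPM were also at 0 in that library. In the class, 4 of 7 genes were lower at an unadjusted p under 0.05 (5.92% of all tested genes). The median log2 fold change was -1.24, or -0.87 without mutant library 4.

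Titin and the Z disc held both large and small differences. Ttn, the giant spring protein of the sarcomere (ENSMUSG00000051747.15; GRCm38 chr2:76703980-76982547, minus strand), had 1178, 654, 300.3 and 247 CPM in the parental and 249, 258, 291 and 22.8 CPM in the mutant libraries. Mutant libraries 1 to 3 sat between parental libraries 3 and 4, with a log2 fold change of -1.53 ± 0.50 over all libraries (adjusted p = 0.173). Nexn, nexilin, an actin-binding protein of the Z disc and of junctional membranes, had 251, 179, 121 and 106 CPM in the parental and 118, 99.1, 67.9 and 59.4 CPM in the mutant libraries. Only mutant library 1 reached into the parental range, and the log2 fold change was -0.93 ± 0.24 (adjusted p = 0.0621). Nebl, nebulette, which binds actin at the cardiac Z disc, had 53.6, 47.2, 22.8 and 25.1 CPM in the parental and 17.3, 18.7, 17.4 and 7.42 CPM in the mutant libraries. The groups did not overlap, and with a log2 fold change of -1.27 ± 0.31 it was the member closest to the threshold (edgeR adjusted p = 0.0506; DESeq2 adjusted p = 0.00694). Without mutant library 4 its log2 fold change was -1.06 ± 0.28 (adjusted p = 0.07001).

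Des, desmin, the intermediate filament that links Z discs, ran from 16.2 to 62.01 CPM in the parental and from 11.5 to 25.4 CPM in the mutant libraries, with a log2 fold change of -1.05 ± 0.33. Ldb3, which binds alpha-actinin at the Z disc, ran from 5.48 to 31.6 and from 0 to 8.72 CPM (log2 fold change -1.52 ± 0.61). Actn2, the sarcomeric alpha-actinin that cross-links thin filaments, ran from 1.69 to 18.7 and from 0.5498 to 7.99 CPM (log2 fold change -1.30 ± 0.74). These 3 had overlapping groups and missed the threshold. Myom1, the M band protein myomesin, and Sorbs2, an adaptor at the Z disc and cell junctions, had log2 fold changes of -0.25 ± 0.31 and -0.50 ± 0.32. Csrp3, Smpx and Tcap, small proteins of the Z disc and costamere, stayed at or under 6.000 CPM in every library, and each had 0 counts in mutant library 4. Of the class, 5 of 11 genes were lower at an unadjusted p under 0.05 (5.92% of all tested genes).

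Of the role classes, calcium handling had the median log2 fold change nearest to 0, at -0.24, and 0 of the 4 tested genes had an unadjusted p under 0.05. Atp2a2, the calcium pump SERCA2, which also serves cells outside muscle, had 164, 154, 169 and 131 CPM in the parental and 167, 114, 159 and 156 CPM in the mutant libraries. Levels lay within 1.28-fold over the parental and 1.46-fold over the mutant libraries, and the log2 fold change was -0.05 ± 0.13 (adjusted p = 0.929). Ryr2, the cardiac ryanodine receptor, had 85.5, 42.3, 20.7 and 28.9 CPM in the parental and 34.4, 32.9, 34.3 and 11.00 CPM in the mutant libraries. It was highest in parental library 1 and lowest in mutant library 4, as most sarcomere genes were, with a log2 fold change of -0.64 ± 0.37 (adjusted p = 0.542). Slc8a1, the sodium-calcium exchanger, had 111, 66.02, 28.6 and 22.8 CPM in the parental and 47.2, 42.3, 50.7 and 29.7 CPM in the mutant libraries. All 4 mutant libraries lay inside the parental range (log2 fold change -0.42 ± 0.35; adjusted p = 0.708).

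Cacna1c, the pore of the L-type calcium channel, had 20.9, 16.1, 6.86 and 15.2 CPM in the parental and 13.6, 17.9, 19.98 and 22.3 CPM in the mutant libraries. Along with Hspb7 it was 1 of 2 tested members whose log2 fold change was above 0, at 0.32 ± 0.32 (adjusted p = 0.763), and its highest value was in mutant library 4. Pln, phospholamban, the inhibitor of SERCA2, had 0, 0.359, 0.319 and 0 CPM in the parental and 1.18, 0, 0 and 0 CPM in the mutant libraries. These rest on 7 counts or fewer, and Pln was not tested.

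The natriuretic peptides, hormones of the stretched heart, were at or near 0. Nppa had 0.727 CPM in parental library 1 and 0.179 CPM in parental library 2, from 4 and 1 counts, and 0 in the other 6 libraries. Nppb had 0 counts in all 8 libraries, which for counting error alone allows 0.479 to 0.825 CPM depending on depth. No difference between the lines was detectable for them at this depth. Ankrd1, a strain-responsive repeat protein of the sarcomeric I band and the nucleus, had 28.9, 17.2, 0 and 1.896 CPM in the parental and 1.18, 3.27, 14.3 and 0 CPM in the mutant libraries. Its values ranged widely in both lines and overlapped (log2 fold change -1.32 ± 1.02; adjusted p = 0.677). Fhl2, a LIM domain cofactor, had 4.55, 6.28, 7.98 and 4.64 CPM in the parental and 4.704, 1.74, 1.27 and 6.598 CPM in the mutant libraries. Mutant library 4 had the highest mutant level of Fhl2, opposite to most members (log2 fold change -0.72 ± 0.61; adjusted p = 0.7097).

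Myocd, myocardin, the cofactor of serum response factor at CArG boxes, had the largest negative log2 fold change of the tested members (ENSMUSG00000020542.18; GRCm38 chr11:65176561-65269989, minus strand). It had 73.5, 46.8, 28.9 and 16.4 CPM in the parental and 12.9, 15.3, 16.9 and 1.92 CPM in the mutant libraries. Only mutant library 3 exceeded any parental library, by a small margin over parental library 4. The log2 fold change was -1.79 ± 0.45 (edgeR adjusted p = 0.05701), and -1.47 ± 0.35 without mutant library 4, where it passed the threshold (adjusted p = 0.0448). Without parental library 1 it was -1.37 (adjusted p = 0.232).

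Smyd1, a muscle methyltransferase that acts on myosin folding and on chromatin, had 103, 73.02, 34.6 and 25.1 CPM in the parental and 20.8, 33.6, 26.9 and 7.698 CPM in the mutant libraries. Its groups overlapped, with mutant libraries 2 and 3 above parental library 4 (log2 fold change -1.40 ± 0.39; adjusted p = 0.0935). Unc45b, the chaperone of muscle myosin, had 65.5, 52.2, 38.6 and 34.8 CPM in the parental and 27.9, 32.03, 29.2 and 22.5 CPM in the mutant libraries. The groups did not overlap and the parental spread was narrow, with a log2 fold change of -0.77 ± 0.22 (edgeR adjusted p = 0.0923; DESeq2 adjusted p = 0.0381). The small heat shock proteins Hspb7 and Cryab, which protect filament proteins, had log2 fold changes of 0.11 ± 0.54 and -0.62 ± 0.36, with overlapping groups.

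**Figure D3:**
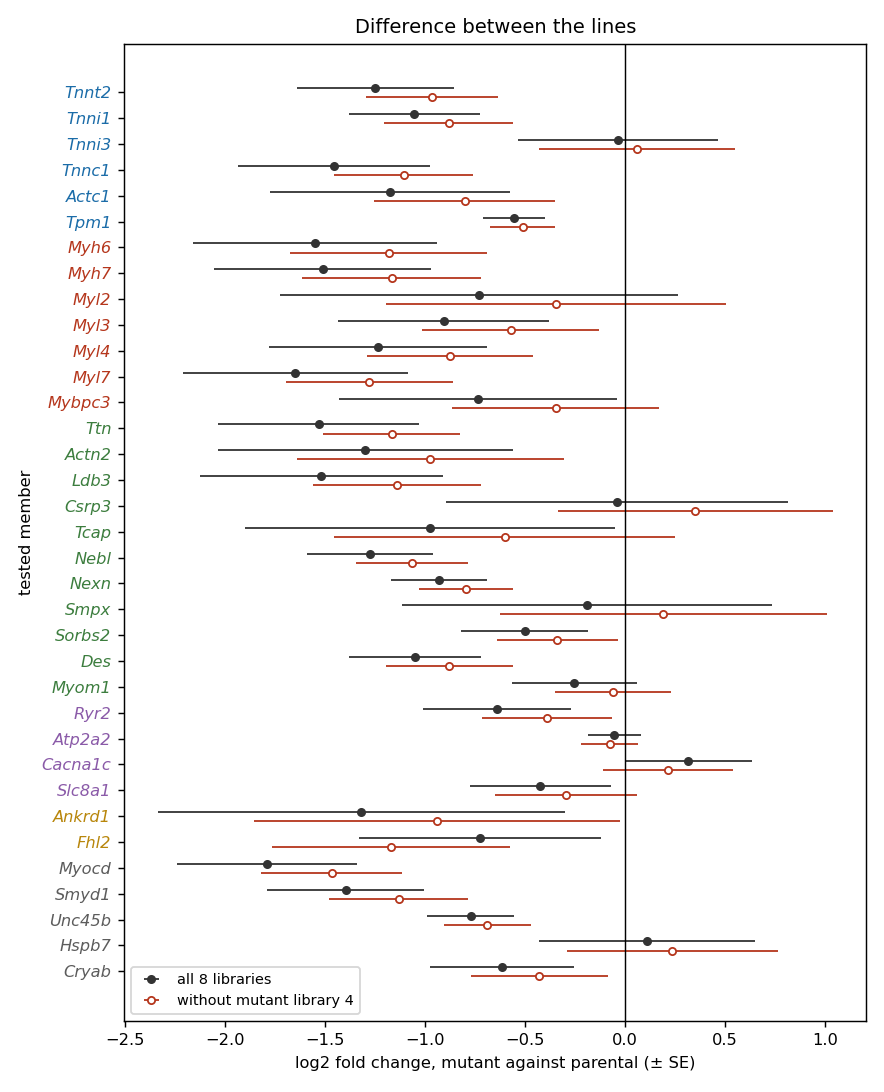
Log2 fold change of each tested member, mutant against parental, with its SE, over all 8 libraries (filled) and without mutant library 4 (open); gene names are coloured by role in the order thin filament, thick filament, titin with Z disc and M band, calcium handling, strain response, regulators and chaperones. Of the filled points, 33 of 35 lie below 0, and Nebl, Nexn, Tpm1 and Unc45b have the shorter bars among those well below it.

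The forms used within a pair of related genes were compared as shares of counts, which do not depend on scaling. Myl7 made up 98.96 ± 0.85% (SD, n = 4) of Myl7 plus Myl2 in the parental and 97.8 ± 1.49% (SD, n = 4) in the mutant libraries (two-sided exact permutation p = 0.229; adjusted over the 3 pairs 0.343). Tnni1 made up 94.2 ± 3.03% of Tnni1 plus Tnni3 in the parental and 89.9 ± 3.35% in the mutant libraries (exact permutation p = 0.0571; adjusted 0.171). Myh7 made up 61.1 ± 2.37% of Myh7 plus Myh6 in the parental and 64.3 ± 12.1% in the mutant libraries (exact permutation p = 0.657). The atrial light chain and the fetal troponin I thus dominated in every library of both lines, while both heavy chains were in use. With all libraries included, the permutation test told no pair apart, and the smallest p this design can give before adjustment is 0.0286. No pair was told apart without mutant library 4 either, where fewer libraries make the smallest possible p larger. For Myl7, mutant library 4 stood apart from the other mutant libraries. Mutant libraries 1 to 3 had shares of 97.27, 96.69 and 97.26%, below every parental library (98.05 to 100%). Mutant library 4 was at 100%, from 30 counts (95% exact interval 88.4 to 100) with Myl2 at 0. Without it the Myl7 difference was -1.89 percentage points, against -1.16 with it. The Myh7 share in mutant library 4 rests on 14 counts, at 78.6% (95% exact interval 49.2 to 95.3), and without that library the difference between the lines was -1.46 percentage points.

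**Figure D4:**
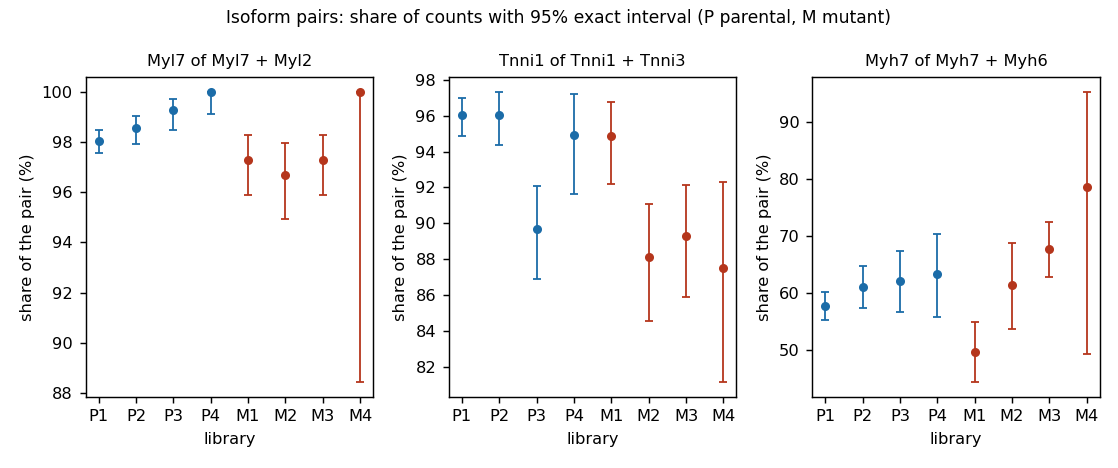
Share of counts of the first gene in each pair, in percent, per library (P parental, M mutant), with 95% exact intervals for counting error; the 3 axes have different ranges and do not start at 0. Myl7 stays above 96% and Tnni1 above 87% in every library, and the interval for Myh7 in mutant library 4 is the widest.

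Mutant library 4 was not low in all muscle genes alike. Against the mean of mutant libraries 1 to 3, its summed thick filament level was 7.10%, titin and Z disc 27.6%, regulators and chaperones 47.0%, thin filament 63.97%, and calcium handling 89.4%. The thin filament sum there was mostly Tpm1 (530.0 of 611 CPM) and the calcium handling sum mostly Atp2a2 (156 of 219 CPM). Without the highest gene of each class, the thin filament was at 23.1%, the thick filament at 7.72%, titin and the Z disc at 50.3%, and calcium handling at 64.1%. Of the 25 members with a mean of at least 10 CPM in mutant libraries 1 to 3, 10 were under 25% of it in library 4, 11 lay between 25% and 75%, and 4 were above. Actc1 was at 4.76%, Myl7 at 6.17% and Ttn at 8.59%, whereas Tpm1 was at 87.6%, Unc45b at 75.9%, Atp2a2 at 106% and Cacna1c at 130%. The sum of smooth muscle markers was at 89.1%, of cardiac transcription factors and heart tube genes at 105%, and of mesenchyme markers at 117%. These sums also rest on few genes and do not describe each gene of a list. Acta2 and Cald1 gave 327 and 448 of 844 CPM of the smooth muscle sum, and Hand1 and Hand2 535 and 512 of 2095 CPM of the cardiac factor sum. Among the cardiac factors Nkx2-5 and Tbx5 had 0 counts in library 4 and Gata5 was at 33.2%, while Gata4 was at 110% and Tbx20 at 137%.

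Genes of the same pathways outside the 38 members were read from lists. Of 39 other sarcomere genes 24 were tested and 0 were called, with 14 below 0 and a median log2 fold change of -0.10. Their highest-level gene, Tpm4, a tropomyosin of non-muscle cells, had 130.4 ± 12.8 CPM in the parental and 157 ± 29.6 CPM in the mutant libraries (SD, n = 4). The skeletal or adult genes Tnnc2, Myh3, Myoz2 and Mybpc2 had 0 counts in every library. The list as a whole thus lay nearer to all genes than the 38 members did.

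Of 36 other calcium and ion channel genes 22 were tested and 1 was called lower. This was Jph2, junctophilin 2, which holds the cell membrane and calcium store together, with 27.1, 16.9, 15.00 and 10.7 CPM in the parental and 3.696, 7.84, 6.902 and 4.67 CPM in the mutant libraries. The groups did not overlap, and the log2 fold change was -1.59 ± 0.37 (edgeR adjusted p = 0.0389). The call is near the threshold: it was lost under 11 of 19 alternatives, with adjusted p up to 0.191, at -1.51 ± 0.38 without mutant library 4 (adjusted p = 0.0512) and -1.30 without parental library 1.

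Of 17 muscle energy genes 8 were tested. Pgam2, the muscle form of phosphoglycerate mutase in glycolysis, fell, from 64.9, 52.9, 26.8 and 28.02 CPM in the parental to 20.5, 12.6, 16.9 and 9.07 CPM in the mutant libraries (log2 fold change -1.53 ± 0.31; adjusted p = 0.0124). The call was lost without parental library 1 (adjusted p = 0.0654) and without parental library 2 (0.0692). Lpl, lipoprotein lipase, rose (log2 fold change 1.23 ± 0.17; adjusted p = 0.000551). Ckmt2, Cox8b and Cpt1b, genes of mature heart muscle, had 0 counts in every library.

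Of 32 cardiac transcription factors and heart tube genes 28 were tested, with 16 below 0 and a median log2 fold change of -0.13. Gata6 rose from 129 ± 20.99 to 213 ± 18.2 CPM (log2 fold change 0.72 ± 0.13, adjusted p = 0.00516). Bmp4, a growth factor of the mesoderm, fell from 342 ± 58.5 to 127 ± 50.5 CPM (log2 fold change -1.42 ± 0.22, adjusted p = 0.00165). Hand1, the highest of the list, had 615 ± 32.1 and 469 ± 84.7 CPM and was not called (adjusted p = 0.115). The calls of Gata6 and Bmp4 held under each of the 19 alternatives, mutant library 4 and parental library 1 left out included.

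Markers of other cell types moved with the comparison, and their part in the member values was not tested. The 18 endothelial and blood markers summed to between 712 and 1081 CPM in the parental and between 1322 and 2165 CPM in the mutant libraries. The 3 called among them were the embryonic globins Hba-x, Hbb-bh1 and Hbb-y, with log2 fold changes of 2.96 ± 0.19, 2.00 ± 0.15 and 3.78 ± 0.37. The 12 mesenchyme and fibroblast markers summed to between 1044 and 1465 CPM in the parental and between 2094 and 2647 CPM in the mutant libraries. Col3a1, Twist1, Col1a2 and Postn rose there, from 0.93 ± 0.14 (Col1a2) to 2.29 ± 0.21 (Col3a1) on the log2 scale. Of 11 tested endoderm and epithelium markers, Foxa2 and Krt18 fell, and the list summed to between 399.9 and 733 CPM in the parental and between 328 and 448 CPM in the mutant libraries. Leaving out 1 library ended the call of Foxa2 for 6 of 8 libraries (parental 1 to 4, mutant 2 and 3; adjusted p up to 0.111). It ended that of Krt18 without parental library 1 or 2 or mutant library 3 (up to 0.0692), and that of Postn without parental library 3 (0.0515). The mesenchyme and the endothelial and blood sums were higher in every mutant library than in any parental library, library 4 included. The second sum leans on globins. Hba-x and Hbb-bh1 had 171 to 357 and 366 to 480 CPM in the mutant, against 27.9 to 35.5 and 72.8 to 123 CPM in the parental libraries. Of the 18 markers, 16 had a log2 fold change above 0. In 5, the 3 globins included, every mutant library was above every parental one (463 of 13280 tested genes). Pecam1, Kdr and Egfl7 overlapped between the lines. Within the parental line, libraries 1 and 2 were above 3 and 4 in the mesenchyme and the endothelial and blood sums, as they were for the members.

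Other lists had the same order over the parental libraries with a smaller range. Mesenchyme markers summed to 1465, 1328, 1047 and 1044 CPM in parental libraries 1 to 4, endoderm and epithelium markers to 733, 599, 480 and 399.9 CPM, and cardiac transcription factors and heart tube genes to 2528, 2294, 2015 and 1977 CPM. The sum of smooth muscle markers was 1780, 1204, 796 and 744 CPM in the parental and 1036, 877, 929 and 844 CPM in the mutant libraries, and 0 of the 9 tested genes were called. Acta2, smooth muscle actin, which early cardiomyocytes also express and which was named after its values were seen, had 1080.3, 602, 256 and 185 CPM in the parental and 444, 353, 434 and 327 CPM in the mutant libraries. It ran with Actc1 over the parental libraries and not in mutant library 4. Cald1, the highest of the list, had 503 ± 39.6 and 449 ± 31.3 CPM, without that order. The skeletal muscle regulators Myod1 and Myf6 had 0 counts in every library, and that list summed to at most 31.2 CPM in any library. Neural markers summed to at most 71.6 CPM and pluripotency markers to at most 112 CPM. Of the latter Klf2, a factor that endothelial cells also express, rose (log2 fold change 1.07 ± 0.23; adjusted p = 0.01901). That call was lost without parental library 2 or 3 or mutant library 1 or 3 (adjusted p up to 0.0719).

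**Figure D5:**
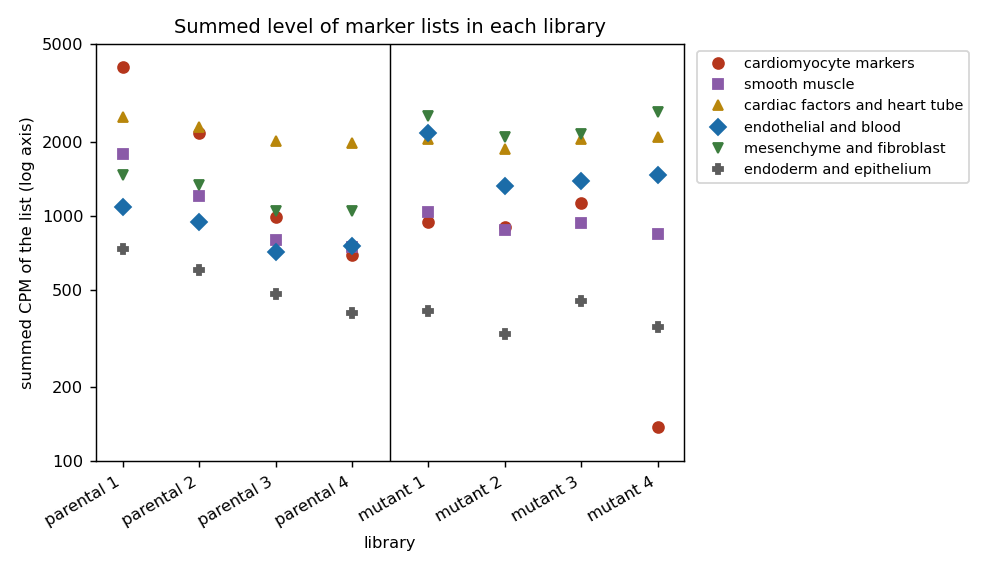
Summed CPM of marker lists in each library on a log axis. The cardiomyocyte markers run from 4041 CPM in parental library 1 to 139 CPM in mutant library 4. The mesenchyme and the endothelial and blood lists are higher in each mutant library than in any parental library, and the second list includes the embryonic globins, which were called higher.

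The cardiomyocyte markers are all among the 38 members, so they give no independent check of the cell type. Their sum was 4041, 2174, 983 and 689 CPM in the parental and 941, 898, 1122 and 139 CPM in the mutant libraries. Tnnt2, Myl7 and Ttn were present in all 8 libraries, in mutant library 4 at the lowest level, while Nppa and Pln were near 0 throughout. The sum differed 5.86-fold over the parental libraries, and the means were 1972 ± 1521 CPM in the parental and 775 ± 435 CPM in the mutant line (SD, n = 4).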

How the data were processed

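QuantSeq libraries of polyA RNA from 4 parental and 4 Tbx1-/- line 4D cultures were analysed from the table of counts per gene that the authors deposited, whole numbers without normalization. STAR, featureCounts and mm10 are named in the submitters' processing notes; versions, annotation and filters are not given in the sources used here. Gene identifiers were matched to GENCODE M21 on GRCm38 (55141 of 55487 with a symbol). The members, lists and motifs were chosen with earlier results of these data known.

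Genes were filtered with filterByExpr at its default minimum of 10 counts, which left 13280 genes holding 99.5% of counts. They were compared with edgeR 4.0.16 (TMM, quasi-likelihood F test, R 4.3.3), with two-sided p-values adjusted over all tested genes by the Benjamini-Hochberg procedure and a threshold of 0.05. Fold changes use edgeR's default prior, and log2 CPM a prior count of 2. Shares within gene pairs were compared by an exact permutation test over libraries (SciPy 1.17.1). A count of 0 was read as up to 3 counts, and shares carry 95% Clopper-Pearson intervals. Values per library were given for the 2 members of highest mean CPM in each role, the gene pairs and 8 fixed members, and of other lists for called genes and the highest gene. The fits were tested on simulated data. No 2 libraries of the same line agreed within sampling noise (chi-square per degree of freedom 7.04 to 24.2). Alternatives were other scalings and filters, DESeq2 1.42.0, limma-voom 3.58.1, thinning, a replicate block and each library left out. No alternative was added later. Some genes that the naming rule takes are not reported here.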

Additional observations from a re-analysis of the deposited data

Results flagged for a closer look

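In 7 of 72 groups of 4 libraries, 1 library of a member stood far from the other 3 of its line. Dixon's criterion was used, the gap to the nearest library over the group's range. For independent, normally distributed values it flags about 1 in 20 groups. The members share the same libraries and are not independent, so the flagged share cannot be set against that rate. In 6 of the 7 the library was mutant 4, as the lowest. There Tnnt2 was at 29.97 CPM, Myl2 at 0 CPM, Myl7 at 8.25 CPM, Ttn at 22.8 CPM, Nebl at 7.42 CPM and Ryr2 at 11.00 CPM. The seventh was Pln, at 1.18 CPM in mutant library 1, with 0 in the other mutant libraries.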

How the results depend on the processing

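The median log2 fold change of the members stayed below 0 under all 19 alternatives (-1.14 to -0.42, both ends from leaving out 1 parental library). The count of members called lower, 0 in the main analysis, was 1 with RLE scaling (1.43% of all tested genes called), 2 with DESeq2 (3.05%), 2 with thinning to equal depth (1.55%) and 18 with no filter beyond 1 count (1.64%), where the fitted prior degrees of freedom became infinite. With a replicate block the count was 11 (1.76% of all tested genes), and 13 with the block and both libraries numbered 4 left out (1.93%). Over all tested genes, same-numbered libraries did not deviate together (correlations -0.033 to 0.102, and 1 of 4 correlated best with its own number), so the numbers were not taken as pairs. Over the tested members alone the correlations were 0.0886, 0.263, -0.611 and 0.674 for numbers 1 to 4. Between parental library 1 and mutant library 3 the correlation was 0.806. Leaving out 1 library gave 0 to 8 members called lower. The cause was not tested. Among the members, 26 never changed sign. The 18 called under at least 1 alternative were the same 18 that were called with no filter beyond 1 count (1.64% of all tested genes). Signs turned for Myl2 under limma-voom (0.19) and with quality weights (0.59), for Tnni3 with quality weights (0.089), thinning (0.11) and the block (0.0103), for Csrp3 with thinning (0.0687) and the block without libraries 4 (0.00204), and for Hspb7 under that same fit (-0.0209). With 1 library left out, log2 fold changes ran from -0.32 to 0.22 for Tnni3, -1.14 to 0.52 for Myl2, -1.60 to 0.0417 for Mybpc3, -0.71 to 0.35 for Csrp3, -0.83 to 0.56 for Smpx, -0.46 to 0.20 for Myom1, -0.68 to 0.12 for Slc8a1, -0.39 to 0.63 for Hspb7 and -0.13 to 0.0474 for Atp2a2. The Myh7 share differed by -1.46 percentage points with a minimum of 20 counts per pair, which drops mutant library 4, and by -1.46 to 8.198 with 1 library left out. Depth limits Pln, Nppa, Nppb, Csrp3, Smpx and Tcap.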
